A study of Homo sapiens with 10 samples.

Results

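Nucleolin (NCL), nucleophosmin (NPM1), fibrillarin (FBL), NOP56, NOLC1 and dyskerin (DKC1) are nucleolar proteins of ribosome biogenesis, and their 6 genes were examined for MYC, MYCN and histone marks in the human cell line RPMI-8402, which was derived from a T-cell acute lymphoblastic leukaemia. Each gene was represented by a fixed window of the hg19 genome, and a listed region belonged to a window when it shared at least 1 bp with it. The windows held 31 of the 121294 regions in the 6 peak lists used.

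Ribosome biogenesis starts in the nucleolus, where ribosomal RNA is transcribed, cut, chemically modified at many single bases and joined to ribosomal proteins. Small nucleolar RNAs guide the modification: box C/D particles methylate riboses and box H/ACA particles turn uridine into pseudouridine. Genes of this pathway are among the best known targets of MYC, a transcription factor that binds E-box DNA together with MAX, and MYCN is its close relative. Among histone marks, trimethylation of H3K4 is typical of promoters in use, acetylation of H3K27 of promoters and enhancers in use, and monomethylation of H3K4 of enhancers and of the edges of promoters.

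Binding and marks were mapped by CUT&RUN, in which a nuclease tethered to an antibody inside permeabilised cells cuts out the DNA next to the antibody's target. All libraries came from the same line with no treatment named beyond the antibodies. MYC was profiled in sets C and D and MYCN in set A, H3K27ac and H3K4me1 belong to set C and H3K4me3 to set B, and each of the 4 sets has an IgG control. The 6 libraries with peak lists were used. MYC alone had 2 lists, but as both headers name one signal track they are not shown to be independent. Every other target had 1 library. The control named in the labels for MYC of set D is that library itself, whereas the other lists have the IgG library of their set. Over the autosomes and chromosome X the lists ranged in length from 895 regions for MYCN to 39528 for H3K27ac. The lists hold positions without read counts or scores, so depth is unknown, and a gap in a list is the lack of a called region and not a measured level of zero. The values below describe these lists, and no test was made over the 6 genes.

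The promoters came first as sequence, because MYC and MAX are known to prefer the E-box CACGTG and also bind the related CACGCG. RefSeq promoter entries of GRCh38.p14, which run from 250 bases before to 50 bases after a gene's start, were matched by symbol for 5 of the 6 genes, with NOLC1 unmatched. They are not placed against the hg19 peaks. The bases before the start of NPM1 and FBL are shown because these 2 genes held a searched motif there. Those of NCL and NOP56 are examples of genes with MYC listed in their window but neither motif in the entry. DKC1 was of the same kind and is not shown. Capitals mark CACGCG on either strand (CACGCG or CGCGTG), and all sequences are written 5′ to 3′ along the gene.
NPM1, chromosome 5, plus strand: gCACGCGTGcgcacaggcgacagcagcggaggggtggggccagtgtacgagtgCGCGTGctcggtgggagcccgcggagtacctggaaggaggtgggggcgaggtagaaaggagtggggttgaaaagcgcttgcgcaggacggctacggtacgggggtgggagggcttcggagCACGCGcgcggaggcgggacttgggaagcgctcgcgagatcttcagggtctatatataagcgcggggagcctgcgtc
FBL, chromosome 19, minus strand: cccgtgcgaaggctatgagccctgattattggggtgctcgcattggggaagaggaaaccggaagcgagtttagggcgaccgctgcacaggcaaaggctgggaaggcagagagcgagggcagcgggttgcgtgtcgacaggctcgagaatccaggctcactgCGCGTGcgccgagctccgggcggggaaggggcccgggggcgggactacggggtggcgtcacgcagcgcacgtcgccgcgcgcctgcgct
NCL, chromosome 2, minus strand: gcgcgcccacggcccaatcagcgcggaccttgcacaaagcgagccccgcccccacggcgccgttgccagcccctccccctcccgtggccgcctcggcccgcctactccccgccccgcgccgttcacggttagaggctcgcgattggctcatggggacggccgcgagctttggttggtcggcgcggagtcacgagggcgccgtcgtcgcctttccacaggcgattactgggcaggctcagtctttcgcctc
NOP56, chromosome 20, plus strand: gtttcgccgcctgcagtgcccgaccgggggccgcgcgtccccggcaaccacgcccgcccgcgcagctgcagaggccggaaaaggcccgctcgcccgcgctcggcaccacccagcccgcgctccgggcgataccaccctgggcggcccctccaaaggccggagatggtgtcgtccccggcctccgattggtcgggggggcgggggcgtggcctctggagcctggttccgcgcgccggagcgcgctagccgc

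Before the start site CACGTG was found in 0 of the 5 genes, against 7.73% of all 27305 genes with an entry, and CACGCG in 2 of the 5, against 11.5%. NPM1 carried CACGCG letters from base -249 to -242, where the 2 strands' matches overlap, from -197 to -192 and from -77 to -72, and FBL from -89 to -84. FBL held the sole CACGTG of the 5 genes once the bases after the start were included, at bases 7 to 12, against 8.77% of all genes over the whole entry, while CACGCG stayed at 2 of 5, against 13.5%. That stretch of FBL, with the E-box in capitals, reads as follows.
FBL, E-box after the start: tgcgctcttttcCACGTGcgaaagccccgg
GC content was 70.3% for NCL, 66.0% for the first NPM1 entry, 67.7% for FBL, 76.3% for NOP56 and 72.3% for DKC1, against a median of 58.7% over all 35116 entries. The same entries held from 33 (NPM1) to 42 (NOP56) CG pairs, against a median of 14. CACGCG itself contains CG pairs, and the motif shares over all genes were not matched for GC or CG content. NPM1 had a second entry, with 47.7% GC and neither motif. Of 68 other ribosome biogenesis genes on a list written down with the design, 57 had an entry, and CACGTG was found before the start in 11 of them (19.3%) and in the whole entry in 25 (43.9%). CACGCG was found before the start in 9 of the 57 (15.8%) and in the whole entry in 17 (29.8%). NAT10, an RNA acetyltransferase, LYAR, a nucleolar protein, and DDX21, a nucleolar RNA helicase, were among the 11 with CACGTG before the start. Peaks at these other genes were not analysed here, for want of hg19 positions. A match is a description of letters and not of binding, and a missing match says only that the letters are absent from the stretch searched.

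All 6 windows held H3K4me3 and MYC in both lists, and none held MYCN. H3K27ac was listed in 5 of the 6, with FBL as the exception, and H3K4me1 in NOLC1 alone. Consecutive tiles of 22.5 kb, the median window length, gave the background: of the 11294 tiles with H3K4me3, 51.5% held MYC of both sets, 6.52% MYCN, 83.7% H3K27ac and 48.3% H3K4me1. The count of 0 MYCN windows among 6 is close to its background. The genes were chosen with earlier results of these data known, so their counts are not independent evidence.

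The widest H3K4me3 region of each window was taken as its promoter region, a choice that uses neither MYC nor acetylation. These regions measured 2503 bp at NCL (chr2:232327802-232330304), 3260 bp at NPM1 (chr5:170813769-170817028), 1366 bp at FBL (chr19:40335830-40337195), 2434 bp at NOP56 (chr20:2631954-2634387), 1249 bp at NOLC1 (chr10:103912075-103913323) and 2513 bp at DKC1 (chrX:153990250-153992762). NPM1 had the widest, wider than 95.7% of all 13852 H3K4me3 regions. NCL, NOP56 and DKC1 were wider than 87.7%, 86.5% and 87.8% of the list, whereas FBL and NOLC1 stood near its middle, at 51.0% and 46.1%.

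**Figure D1:**
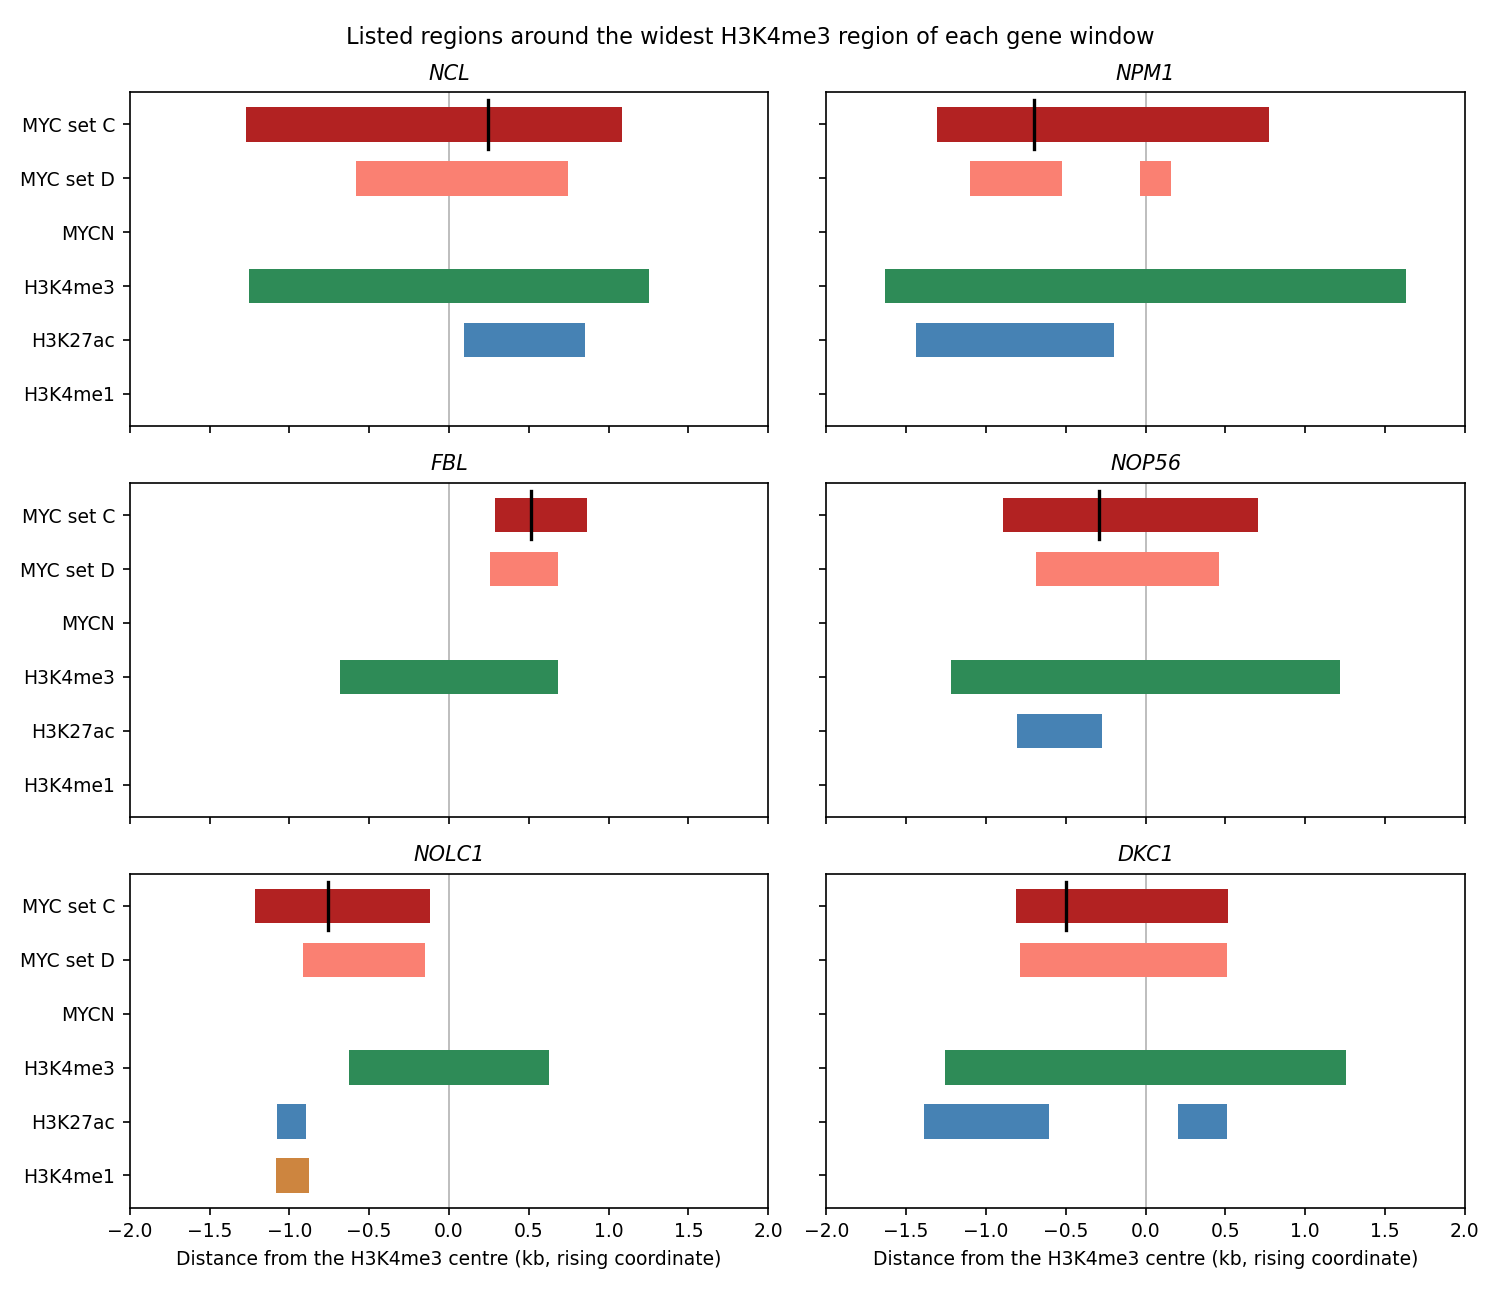
Listed regions of 6 peak lists (rows) around the centre of the widest H3K4me3 region of each gene window, with distance in kb in the direction of rising coordinate, and black ticks at the inner interval that the MYC list of set C names. MYC of both sets overlaps H3K4me3 at all 6 genes, MYCN is absent from every panel, and H3K27ac overlaps H3K4me3 at NCL, NPM1, NOP56 and DKC1 only.

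Of these promoter regions, 6 of 6 overlapped MYC of set C and 6 of 6 MYC of set D, against 47.9% and 72.3% of all H3K4me3 regions, of which 76.7% met at least 1 of the 2 lists. MYC of both sets met 43.4% of all H3K4me3 regions. Within the width range of the 6 genes, from 1249 to 3260 bp, lay 6865 regions. Of these 6865, 56.6% met MYC of both sets and 91.3% met MYC of at least 1 set. NCL, NPM1, NOP56 and DKC1, at 2434 bp or more, stood in the upper part of this broad range. Its shares are therefore not matched to their widths. MYCN met 0 of the 6, against 5.10% of all regions, 7.20% in this range and 9.16% of the 6016 with MYC of both sets. H3K27ac met 4 of the 6, close to the background of 66.2%. The H3K27ac share was 82.0% in this range and 83.6% among regions with MYC of both sets. H3K4me1 met 0 of the 6, against 14.4% of all regions and 12.9% in this range. NCL, NPM1, NOP56 and DKC1 thus shared 1 combination, MYC of both sets with H3K27ac and without MYCN or H3K4me1, which 26.9% of all H3K4me3 regions had. The share of this combination within the width range was not counted. The H3K4me3 regions of FBL and NOLC1 met MYC of both sets without H3K27ac, as did 7.13% of all regions, a share likewise not matched for width. At NOLC1, unlike FBL, the MYC regions of both sets did overlap an H3K27ac region, which lay 272 bp outside H3K4me3.

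**Figure D2:**
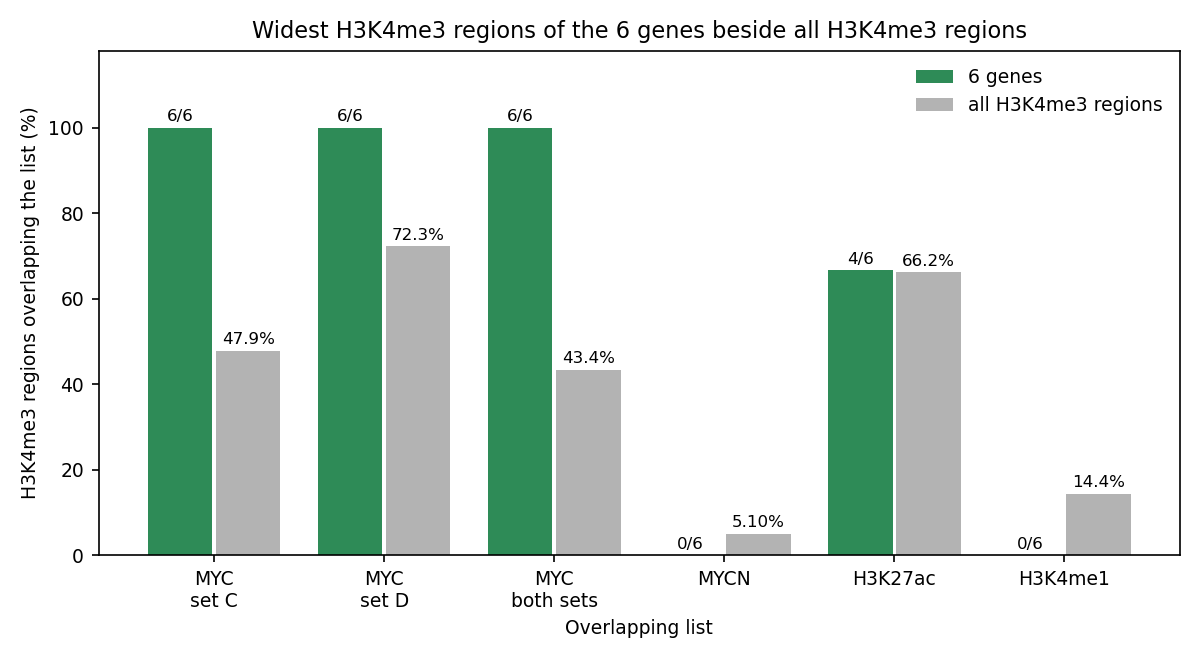
Share of H3K4me3 regions that overlap each list by at least 1 bp, in percent, for the widest region of each of the 6 gene windows (green, with counts) and for all 13852 H3K4me3 regions (grey). The 6 genes reach 6 of 6 for MYC in both sets against 43.4% of all regions, while H3K27ac, at 4 of 6, lies beside its background of 66.2%. Among regions within the width range of those of the genes, not drawn, these shares were 56.6% and 82.0%.

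Among the general nucleolar factors, NCL, an abundant RNA-binding protein of the nucleolus, had the most extensive MYC region of set C. It ran over 2357 bp at chr2:232327781-232330137, wider than 95.5% of that list, and covered 93.3% of the H3K4me3 region. The set D peak of 1330 bp at chr2:232328469-232329798 lay inside it and was wider than 99.2% of its own list. H3K27ac covered 754 bp of the same promoter, at chr2:232329150-232329903, on the upstream side of the H3K4me3 centre. A second H3K27ac region of 520 bp lay 9054 bp away within the window, at chr2:232318229-232318748, and overlapped no other list.

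NPM1, a histone chaperone and assembly factor of the nucleolus that is mutated in acute myeloid leukaemia, had a MYC region of 2082 bp in set C at chr5:170814093-170816174, wider than 93.3% of its list. Set D split the same stretch into 2 peaks, of 579 bp at chr5:170814298-170814876 and of 193 bp at chr5:170815364-170815556. The larger was wider than 70.6% of set D peaks and the smaller than only 2.21%. H3K27ac of 1240 bp at chr5:170813964-170815203, the widest of the 8 H3K27ac regions in the windows, covered 38.0% of the H3K4me3 region and contained the larger set D peak but not the smaller.

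NOLC1, also known as Nopp140, is a chaperone of small nucleolar ribonucleoproteins. Its MYC region of set C measured 1100 bp (chr10:103911482-103912581) and its set D peak 764 bp (chr10:103911783-103912546). These reached past the lower edge of H3K4me3, so that 46.1% of the set C region and 61.8% of the set D peak lay in that mark. H3K27ac (180 bp, chr10:103911624-103911803) and H3K4me1 (212 bp, chr10:103911613-103911824) were listed at nearly the same place, inside the set C region and 272 and 251 bp below the edge of H3K4me3. The acetylated region was wider than only 8.19% of its list. NOLC1 was thus the sole gene of the 6 at which acetylation was listed beside the H3K4me3 region and not within it.

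The box C/D genes differed from each other. FBL, the ribose methyltransferase of these particles, had the narrowest MYC region of set C among the 6 genes, 578 bp at chr19:40336802-40337379, and only 1.63% of that list was narrower. Its set D peak of 427 bp (chr19:40336772-40337198) stood at the middle of the other list, wider than 50.7% of it. Both lay at the upper, gene-upstream end of H3K4me3, and the set C region extended beyond it, with 68.2% of its bases in the mark. The nearest H3K27ac region lay 166 kb from this promoter region and the nearest H3K4me1 region 110.4 kb, and 1.26% and 9.97% of all H3K4me3 regions were at least as far from these marks. The stretch around FBL without a listed H3K27ac region ran over 531 kb, chr19:39971708-40502874, and 97.7% of all gaps between H3K27ac regions were shorter (median 21.0 kb). It held 2 H3K4me1 regions and 6 H3K4me3 regions, those of the FBL window included. Of the 6, 6 overlapped MYC of at least 1 set and 3 overlapped both. Over all H3K4me3 regions these shares were 76.7% and 43.4%, so the counts are not far from background. On chromosome 19 it ranked 13 in length among 1225 such gaps. The stretch was measured after the absence of H3K27ac at FBL had been seen. A gap chosen because it surrounds a given point is more often a long one. The share of shorter gaps is therefore not a like comparison. Whether H3K27ac signal lies there below the list's threshold was not tested.

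The FBL window also held a second, smaller H3K4me3 region of 396 bp (chr19:40324376-40324771), covered by a set D peak of 640 bp (chr19:40324301-40324940) with no region of set C. The other 7 set D peaks of the windows met set C, against 45.1% of the whole set D list, a share not limited to gene windows. RefSeq of GRCh38 places DYRK1B, a kinase gene read on the same strand, next to FBL on that side, and the gene to which the region belongs was not settled here.

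NOP56, a core scaffold protein of the box C/D particle, resembled NCL more than FBL. MYC measured 1598 bp in set C (chr20:2632279-2633876) and 1145 bp in set D (chr20:2632484-2633628), wider than 81.4% and 97.7% of their lists, and both lay wholly in H3K4me3. H3K27ac of 534 bp (chr20:2632366-2632899) covered 21.9% of the H3K4me3 region, the least of the 4 genes that had any. A further H3K4me3 region of 1320 bp (chr20:2643981-2645300) crossed the upper edge of the window and lay mostly outside it. Over its whole length it overlapped 0 MYC regions of either set and 1 H3K27ac region. IDH3B, a mitochondrial dehydrogenase gene read on the opposite strand, is the next gene on that side in RefSeq of GRCh38.

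DKC1, the pseudouridine synthase of box H/ACA particles and a part of telomerase, gave the closest match between the MYC lists. The set C region (1329 bp, chrX:153990692-153992020) and the set D peak (1299 bp, chrX:153990720-153992018) differed by 28 bp at one edge and 2 bp at the other. Set D covered 97.7% of the set C region, against a median of 48.5% over the 7839 set C regions that met set D. The other 5 genes ranged from 37.1% at NPM1 to 71.7% at NOP56. H3K27ac flanked the centre of this MYC site as 2 regions, of 779 bp (chrX:153990121-153990899) and 307 bp (chrX:153991712-153992018), and together they covered 38.1% of H3K4me3. A further H3K27ac region of 379 bp, chrX:154004286-154004664, stood alone 11524 bp from the promoter region.

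**Figure D3:**
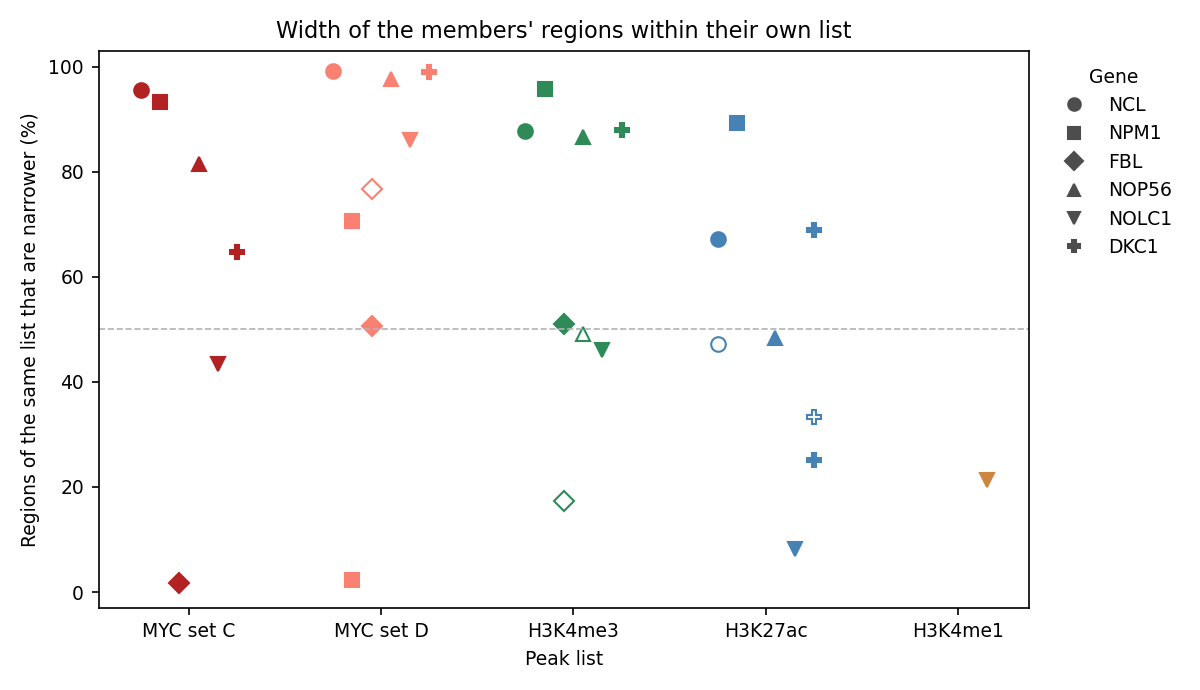
Percent of regions in the same list that are narrower than each region of the 6 gene windows (symbols by gene), with filled symbols for regions near the widest H3K4me3 region and open symbols for those elsewhere in the window, and a dashed line at the middle of the list. The set C region of FBL, at 1.63%, and the smaller set D peak of NPM1, at 2.21%, lie far below the other MYC symbols.

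All 6 MYC regions of set C and all 8 set D peaks in the windows overlapped H3K4me3, against 65.9% of the whole set C list and 56.0% of the whole set D list. All 6 set C regions also met set D, against 82.5% of that list. Every window held H3K4me3, whereas the whole lists run over the genome, so these shares are not matched to gene windows. The share of the H3K4me3 region that set C covered was highest at NCL (93.3%) and lowest at FBL (28.8%), with NOP56 at 65.7%, NPM1 at 63.9%, DKC1 at 52.9% and NOLC1 at 40.6%, around a median of 62.9% for all regions that met set C. Set D gave another order, with NCL at 53.1%, DKC1 at 51.7%, NOP56 at 47.0%, NOLC1 at 37.8%, FBL at 31.0% and NPM1 at 23.7%, around a median of 34.0%. NCL led in both lists, and NPM1 moved from above the median in set C to last in set D. The 2 lists came from different callers, and caller and set cannot be told apart. Where H3K27ac was present it covered between 21.9% and 38.1% of the H3K4me3 region, below the median of 43.8% over the 9176 regions that met it. None of these medians was matched for width. The H3K4me3 regions of the genes with H3K27ac were 2434 bp or wider, against a list median of 1341 bp.

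**Figure D4:**
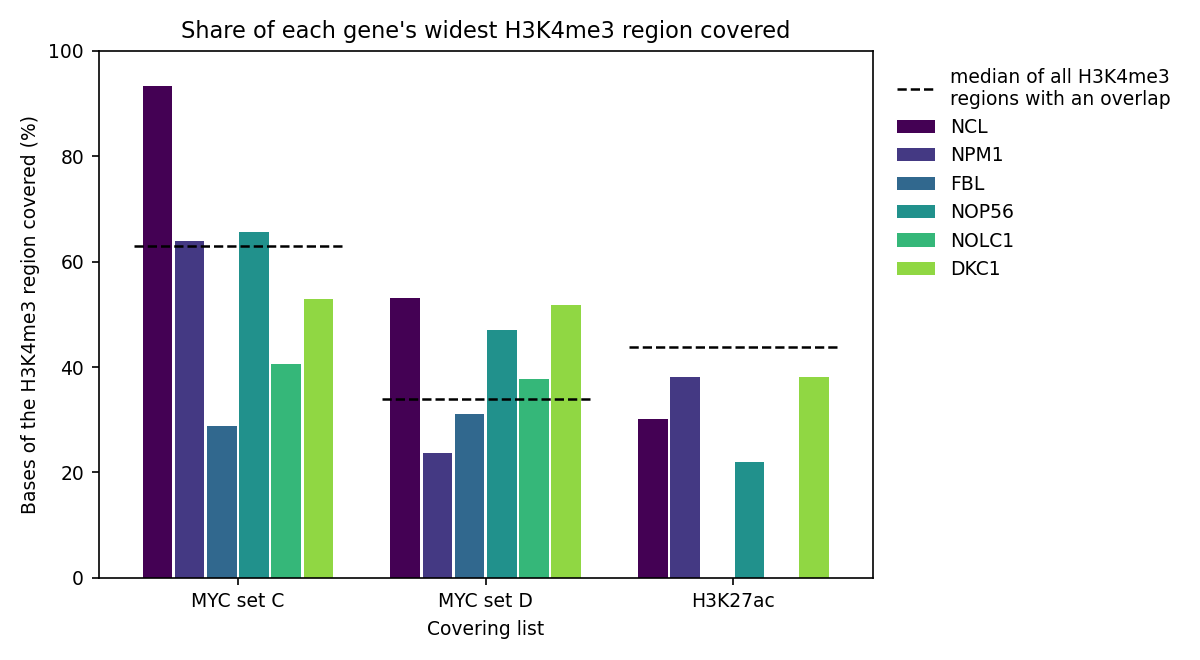
Percent of the bases of each gene's widest H3K4me3 region covered by MYC of set C, MYC of set D and H3K27ac (bars by gene), with dashed lines at the median of all H3K4me3 regions that overlap the list. NCL has the highest bar in both MYC lists, and FBL and NOLC1 have no H3K27ac bar.

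Each region of set C carries in its name a shorter interval that lay inside it in all 9482 cases with a complete name. In SEACR output such an interval marks the stretch of highest signal, although the file does not say so. Coordinates are given here as named in the list. The intervals were chr2:232329277-232329315 at NCL, chr5:170814691-170814707 at NPM1, chr19:40336992-40337061 at FBL, chr20:2632872-2632887 at NOP56, chr10:103911927-103911954 at NOLC1 and chrX:153990992-153991018 at DKC1. Those of all 6 genes lay wholly inside a set D peak, against 72.9% of such intervals over the list. At NPM1 it was the larger of the 2 set D peaks.

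Set against the marks, 5 of the 6 intervals lay inside H3K4me3, against 58.5% of the list, and 3 inside H3K27ac (NCL, NPM1 and NOP56), against 57.6%. The list runs over the genome, so its shares are not matched to gene windows. The NOLC1 interval stood 121 bp below the edge of H3K4me3 and 124 bp above the nearest H3K27ac region, in a gap between the marks. At DKC1 it stood in the gap between the pair of H3K27ac regions, 93 bp from the nearer. Read along the gene, with the strand from RefSeq, the interval lay upstream of the H3K4me3 centre at all 5 genes with a strand, by 243 bp at NCL, 699.5 bp at NPM1, 514 bp at FBL, 291 bp at NOP56 and 501 bp at DKC1. The H3K4me3 centre is not a start site, and distances from start sites were not measured. Without strands for all H3K4me3 regions, no share over the list was counted beside this. The centre of the whole MYC region lay upstream at 4 of these 5 genes in set C, with NCL 94 bp downstream, and for 5 of their 6 peaks in set D, with the smaller NPM1 peak 61.5 bp downstream. At NOLC1, without a RefSeq entry here, the interval lay 758.5 bp toward lower coordinates. Centres of H3K27ac regions lay upstream as well at NCL, NPM1, NOP56 and the larger region of DKC1, by 473.5, 815, 538 and 996 bp, while the smaller DKC1 region lay 359 bp downstream.

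No MYCN peak lay in any window. From the promoter region to the nearest MYCN peak the distance was 18.7 kb at NOLC1, 21.5 kb at DKC1, 197 kb at NCL, 551 kb at NOP56, 1508 kb at FBL and 1749 kb at NPM1. The median over all H3K4me3 regions was 599 kb, and 4 of the 6 genes were nearer than that. Only 8.16% of all H3K4me3 regions were nearer to MYCN than NOLC1 and 8.58% nearer than DKC1, against 72.0% nearer than FBL and 75.3% nearer than NPM1. The MYCN list is the shortest of the 6, and binding below its threshold was not measured.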

How the data were processed

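Peak lists of 6 CUT&RUN libraries of RPMI-8402 were used, as deposited by the authors. The deposited lists hold other values than counts or scores, namely a chromosome, start and end positions in bases on hg19 and a name, which in MYC of set C gives a shorter interval. Per the submitters' processing notes the tools were MACS2 and SEACR, with versions not given in the sources used here. MYCN regions are cutruntools output at a q below 0.01, and H3K4me3 regions are MACS2 output, per the file headers. For MYC the headers name SEACR, stringent and paired, in set C, and MACS2 without pairing in set D. H3K27ac and H3K4me1 carry no header. Callers differ, so widths were ranked within a list only.

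Regions on chromosomes 1 to 22 and X were kept, which left out between 0 and 53 regions a list. Positions were made 1-based. Overlap meant at least 1 bp. Distances run between near edges. Background shares were counted over all H3K4me3 regions, all peaks of a list, all promoter entries and consecutive tiles. No test was made, because each target but MYC has 1 library and genes are not replicates. The members and lists were chosen with earlier results of these data known. All 6 members are named, as the rule for named genes asks, with every region in their windows. The set of regions within the width range of the members was added after the data were examined.

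The overlap code recovered 400 of 400 overlaps planted among 1000 simulated regions and gave the same counts as bedtools for 30 of 30 ordered pairs of lists. Counts were made in Python 3.11.15 and plots with matplotlib 3.10.9.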

Additional observations from a re-analysis of the deposited data

How the results depend on the processing

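MYC in both sets at H3K4me3 held for 6 genes as reported, for 5 (without NOLC1) by peak centre or by sharing at least 50% of the narrower region, and for 4 with wider MYC peaks only, where FBL and NOLC1 dropped out of set C. MYC in at least 1 set held for 6 of 6 with either MYC library left out. Windows widened by 10 kb took in MYCN at 1 gene and H3K4me1 at 3 genes. Windows narrowed by 5 kb gave H3K27ac at 4 genes, and wider regions only gave H3K27ac at 3 genes and H3K4me1 at 0. No background for H3K27ac or H3K4me1 is given under these settings. Including the bases after the start gave CACGTG in 1 gene. The wider MYC peaks were not run on the background. For MYC in both sets the background was 59.8% among H3K4me3 regions at or above the median width. It was 56.6% in the width range of the members, 47.7% after joining within 1 kb and 36.5% by peak centre. By sharing of the narrower region it was 39.6%. For MYC in at least 1 set, 76.7% as reported, these were 92.3%, 91.3%, 82.9%, 68.3% and 72.7%, and between 47.9% and 72.3% with 1 MYC library left out. For MYCN the first 3 were 7.85%, 7.20% and 5.92%. In tiles of 10 and 40 kb, MYC of both sets met 46.8% and 55.2% of tiles with H3K4me3, and MYCN 5.65% and 7.38%. Some of these settings themselves select larger regions or tiles. The cause of these shifts was not tested. No paired analysis was possible because no test was made and each target other than MYC has 1 library. Depth limits all absences here, since the lists give no read counts.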

Other observations

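Outside the windows, a MYCN peak of 153 bp lay 3.25 kb beyond the upper edge of the DKC1 window, at chrX:154014245-154014397. It overlapped 1 MYC peak of set D, 1 H3K27ac region and 1 H3K4me1 region, and neither H3K4me3 nor MYC of set C.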
